A study of Mus musculus with 12 samples.

Results

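Complement is a cascade of plasma and tissue proteins that marks cells for removal and can perforate their membranes. It begins in the classical pathway with C1q, a hexameric protein built from the chains encoded by C1qa, C1qb and C1qc, which is made mainly by macrophages and related cells rather than by the liver. The cascade passes through C4 and C3, is amplified by factor B (Cfb), and is held back by the secreted C1 inhibitor (Serping1) and by 2 proteins anchored in the cell membrane, Cd55, which speeds the decay of the C3 convertases, and Cd59a, which blocks the membrane attack complex. Low CD55 on muscle fibres has been linked to dysferlin deficiency in the literature. Transcripts of these 9 genes were examined in muscle of mice labelled Dysf -/- or Dysf +/+. Dysf encodes dysferlin, a membrane protein of the fibre that takes part in sarcolemmal repair.

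Members were all probe sets whose symbol in the platform's annotation was 1 of the 9 genes (Cd55 also as Daf1). This gave 9 probe sets for 7 genes, among 8251 genes and 12422 probe sets that were not controls, and all 9 were among the 10331 that were tested. C1qb and Cfb had 2 probe sets each, which are annotated to the same gene and are not taken as independent. C3 had no probe set under its name in the annotation used and was not analysed here, and C4b was named only together with C4a. The 3 probe sets annotated to a member plus another gene (2 for C4a and C4b, 1 for Cd55b and Cd55) are given apart as uncertain, and 1 of those for C4a and C4b lay at the floor on all 12 arrays.

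The samples were total RNA of skeletal muscle from mice aged 3 weeks. Dysf_null mice were of the line C57BL/10-SJL.Dysf, labelled Dysf -/-, and Control mice were C57BL/10, labelled Dysf +/+. Each genotype gave 3 arrays of QF and 3 of TA, abbreviations that from knowledge of the study stand for the quadriceps femoris of the thigh and the tibialis anterior of the lower leg. The line carries a dysferlin allele of the SJL strain, so SJL sequence beside Dysf may also differ between the genotypes. No treatment was given in the labels, and whether the 3 replicates of a group were different animals is not stated, so the p-values cover the spread among arrays alone and part of it may be technical.

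No probe set carried the name Dysf, so the dysferlin transcript was not analysed here. Of 11 skeletal muscle markers 10 were measured, and none was called. Their summed intensity was 126400 to 131600 in Dysf_null QF, against 137400 to 140400 in Control QF, without overlap, and 115400 to 126600 in Dysf_null TA, against 125100 to 134200 in Control TA. All 10 differences were negative in QF (median -0.08) and 8 of 10 in TA (median -0.11). Replicate 2 of QF stood apart in both genotypes: its median correlation to the other arrays was 0.876 in Dysf_null and 0.866 in Control, while no other array was below 0.926. Arrays of the same number deviated together in QF and more weakly in TA. The labels do not say what such arrays share, so the number is not a known pairing. It was taken as a block on the strength of these same data. Results with this block are given where they change a member's call or the count of calls in a marker list. Values below are quantile normalized intensities, or log2 of them with a floor at an intensity of 23.0. A difference is Dysf_null minus Control on the log2 scale with its standard error (SE) from limma, and adjusted p-values are limma's after Benjamini-Hochberg adjustment over all tested probe sets, with a call under 0.05.

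The only member called between the genotypes encodes a chain of C1q. C1qb rose in Dysf_null muscle averaged over QF and TA, 1.68-fold by probe set 96020_at, and C1qa, whose product joins those of C1qb and C1qc in the same molecule, was 1.53-fold higher without passing the test. No probe set of the membrane protectors Cd55 and Cd59a, of the C1 inhibitor or of factor B passed the test in any comparison between genotypes. The 3 C1q genes lie next to each other on mouse chromosome 4 in the order C1qb, C1qc, C1qa, with no other gene between them in the reference gene table. All 6 same-numbered pairs had a positive difference for C1qb (96020_at) and for C1qc. The same held for C1qa, Serping1 and the C4a and C4b probe set 103033_at. In 1 C1qc pair the Control array was at the floor. The share over all probe sets is not given, so this count does not set C1qb and C1qc apart. Promoters of C1qb and C1qc are shown because these genes are neighbours and encode chains of C1q. Both are given 5′ to 3′ on the minus strand, from 250 bases before to 50 bases after a start annotated for the gene in GRCm38.p6. They lie at chr4:136886151-136886450 for C1qb and chr4:136892865-136893164 for C1qc. Capitals mark GAGGAA, a purine-rich sequence of the kind bound by PU.1, a transcription factor of the myeloid lineage, or its reverse complement.
C1qb: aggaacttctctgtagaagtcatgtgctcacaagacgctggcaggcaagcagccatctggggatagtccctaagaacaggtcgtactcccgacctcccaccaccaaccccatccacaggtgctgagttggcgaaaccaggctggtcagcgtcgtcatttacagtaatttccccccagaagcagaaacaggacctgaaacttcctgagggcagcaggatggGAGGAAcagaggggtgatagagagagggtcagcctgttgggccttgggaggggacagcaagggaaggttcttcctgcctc
C1qc: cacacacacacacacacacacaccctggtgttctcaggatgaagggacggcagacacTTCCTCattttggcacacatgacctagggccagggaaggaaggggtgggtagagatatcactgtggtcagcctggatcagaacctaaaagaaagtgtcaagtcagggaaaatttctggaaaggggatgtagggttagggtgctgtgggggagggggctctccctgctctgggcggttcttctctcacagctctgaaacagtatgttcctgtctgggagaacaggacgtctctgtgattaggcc

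The motif GAGGAA, searched on both strands and chosen after the sequences were seen, occurred once in the C1qb window, starting 30 bases before the gene's start, and once in the C1qc window. It is common, with a match in 9289 of 32851 promoter windows of the same length (28.3%), and a match describes the letters only. The longer form GAGGAAGT, which contains it, was found in 3.2% of windows and in the C1qc window but not in that of C1qb. The windows of Cd55 and C3 held no GAGGAA and that of Cd59a held 1. The Cd55 window (chr1:130462695-130462994) lies inside the gene, which spans 130429798 to 130465009, so it does not cover the outermost start. The table had promoters for 5 of the 9 members, and C1qa was not among the 5.

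C1qb encodes the B chain of C1q. Its probe set 96020_at read 541.5, 372 and 407 on the Dysf_null QF arrays, against 244.5, 234 and 251 on the Control QF arrays. The Dysf_null TA arrays read 403, 460.4 and 418, against 258, 283 and 274 on the Control TA arrays. Every Dysf_null array lay above every Control array, in QF and in TA alike, a pattern that 1.29% of all tested probe sets shared in this direction.

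On the log2 scale the group means of this probe set were 8.76 ± 0.28 in Dysf_null QF and 7.92 ± 0.05 in Control QF, and 8.74 ± 0.10 in Dysf_null TA and 8.08 ± 0.07 in Control TA (SD, n = 3 each). The 3 Control QF arrays were close to each other, and most of the spread in QF came from the Dysf_null array numbered 1. The difference was 0.84 ± 0.17 in QF (limma adjusted p = 0.0583) and 0.65 ± 0.17 in TA (limma adjusted p = 0.254), neither of which passed the test alone. Averaged over the muscles it was 0.74 ± 0.12, a rise of 1.68-fold (95% interval 1.40 to 2.01, limma adjusted p = 0.00773). In whole muscle, a difference in the number of cells of a type and one in RNA per cell cannot be told apart. With same-numbered arrays as a block, the limma adjusted p was 0.00995 in QF, 0.0416 in TA and 0.00205 for the average. The call for the average held under all 21 alternatives, with differences of 0.67 to 0.80 and limma adjusted p between 0.00198 and 0.036.

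The other C1qb probe set, 162276_i_at, did not show this. It read 1799, 2171 and 1208 in Dysf_null QF, against 1287, 1969 and 1180 in Control QF, and the ranges overlapped. Its TA values were 1149, 1359 and 967 in Dysf_null, against 1617, 750.5 and 794 in Control, again with overlap. Its average difference was 0.22 ± 0.21 (limma adjusted p = 1.00), and over the 12 arrays its log2 values correlated with those of 96020_at at r = 0.13, so the 2 probe sets of this gene disagreed. Which of them tracks the transcript was not tested.

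**Figure D1:**
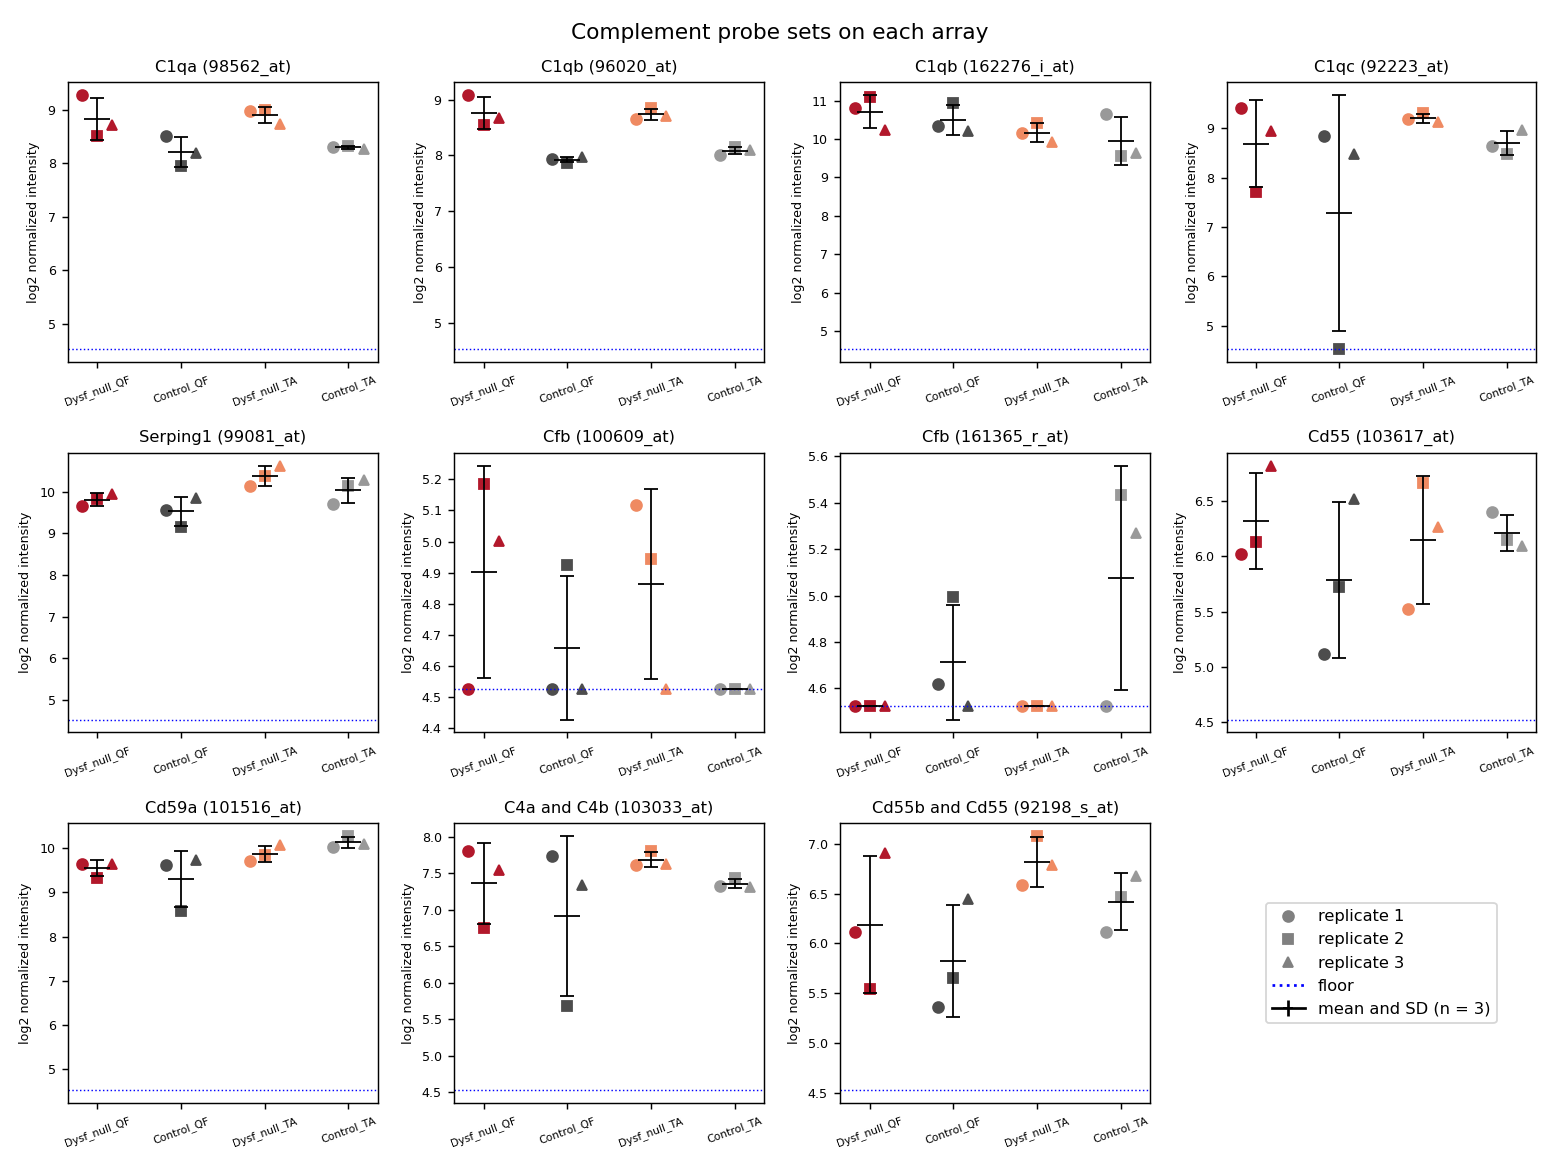
Each panel plots the log2 normalized intensity of 1 complement probe set on the 12 arrays, with symbols for the replicate number, a bar for the mean and SD of the 3 arrays of a group, and a dotted line at the floor (log2 4.53). The Dysf_null arrays of C1qa and of C1qb 96020_at lie above the Control arrays in both muscles, while the groups overlap for Cd55, and C1qc has 1 Control QF array at the floor.

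C1qa encodes the A chain. It read 619, 366 and 418 on the Dysf_null QF arrays, against 364, 246 and 292 on the Control QF arrays. In TA it read 503, 511 and 426 in Dysf_null, against 316, 321 and 307.5 in Control. The groups did not overlap in either muscle, although in QF the lowest Dysf_null array (365.7) and the highest Control array (363.6) were almost level.

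The difference of C1qa was 0.62 ± 0.21 in QF (limma adjusted p = 0.396) and 0.60 ± 0.21 in TA (limma adjusted p = 0.627). For the average it was 0.61 ± 0.15, or 1.53-fold with a 95% interval of 1.22 to 1.91 (limma adjusted p = 0.0812), so C1qa did not pass. It passed with the replicate block, at limma adjusted p = 0.0178 in QF, 0.0282 in TA and 0.0024 for the average. It also passed for the average with array weights (limma adjusted p = 0.0293) and without the Dysf_null QF array numbered 2 (limma adjusted p = 0.0481). Within the same-numbered pairs the difference was positive in 6 of 6, between 0.47 and 0.77.

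C1qc encodes the C chain. It read 681, 209 and 495 in Dysf_null QF, against 459, 13.4 and 355 in Control QF, and the Control QF array numbered 2 was at the floor. In TA it read 583, 632 and 558 in Dysf_null, against 401, 358 and 497 in Control, and these did not overlap. The QF arrays numbered 2, which stood apart over all probe sets, were the lowest of their groups here.

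The difference of C1qc in QF was 1.41 ± 0.84, with a 95% interval of -0.40 to 3.22 (limma adjusted p = 0.928). Without the Control QF array numbered 2 it was 0.03, and without both QF arrays numbered 2 it was 0.52 ± 0.21 (limma adjusted p = 0.614), so the QF value rests on 1 array. In TA the difference was 0.51 ± 0.84 in the fit of all arrays (limma adjusted p = 1.00) and had an SE of 0.14 with TA fitted alone (limma adjusted p = 0.279). The average was 0.96 ± 0.59 (limma adjusted p = 0.897). Its pair differences were 0.57, 3.18 and 0.48 in QF and 0.54, 0.82 and 0.17 in TA.

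C4, the next component of the classical pathway, was measured only by a probe set (103033_at) annotated to both C4a and C4b, near-identical neighbours. It read 225, 107.3 and 186 in Dysf_null QF, against 214, 51.1 and 162 in Control QF. In TA it read 197, 224.5 and 199 in Dysf_null, against 161, 173 and 159 in Control, without overlap. Neither difference passed (0.45 ± 0.44 in QF and 0.33 ± 0.44 in TA), and it cannot be told which gene gave the signal.

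Factor B, which forms the alternative pathway convertase with C3b, was near the limit of measurement. Its probe set 100609_at was at the floor on 7 of the 12 arrays and 161365_r_at on 8. Their average differences had opposite signs, 0.29 and -0.37, and neither passed, so no direction can be given for Cfb.

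Cd55 was not shown to differ between the genotypes. Probe set 103617_at read 65.1, 69.9 and 113 in Dysf_null QF, against 34.8, 52.9 and 91.7 in Control QF. Its TA values were 45.9, 101 and 76.8 in Dysf_null, against 84.4, 70.9 and 68.3 in Control. The groups overlapped in each muscle, with the lowest TA array in Dysf_null and the lowest QF array in Control.

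The log2 means of Cd55 were 6.32 ± 0.43 in Dysf_null QF and 5.79 ± 0.70 in Control QF, and 6.15 ± 0.58 in Dysf_null TA and 6.21 ± 0.16 in Control TA (SD, n = 3 each). The order of the 4 means was Dysf_null QF, Control TA, Dysf_null TA and Control QF, and no neighbours in it differed beyond their spread. The difference was 0.54 ± 0.42 in QF (limma adjusted p = 0.985), and -0.06 ± 0.42 in TA (limma adjusted p = 1.00). The 95% interval of the ratio of Dysf_null to Control ran from 0.77 to 2.73 in QF and from 0.51 to 1.80 in TA. These intervals hold both lower and higher levels, so a p that missed the threshold does not show that Cd55 was equal in the genotypes.

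A second probe set, 92198_s_at, is annotated to Cd55b, a second mouse gene of the same family, and Cd55. It read 69.2, 46.7 and 120.3 in Dysf_null QF, against 41.1, 50.4 and 87.5 in Control QF, and 95.8, 135 and 110.4 in Dysf_null TA, against 69.1, 88.5 and 102 in Control TA. The ranges overlapped in both muscles, with an average difference of 0.38 ± 0.29. No probe set for either protector gene passed in the direction of a loss.

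Cd59a, the mouse form of the inhibitor of the terminal pore, read 800.4, 646 and 807 in Dysf_null QF, against 783, 382 and 856 in Control QF. TA arrays gave 837, 927 and 1072 in Dysf_null, against 1039, 1242 and 1102 in Control. The signs differed between the muscles, 0.24 ± 0.25 in QF and -0.26 ± 0.25 in TA, and neither passed. The average was -0.01 ± 0.18, with a 95% interval of 0.76 to 1.29-fold. It combines opposite signs and does not bound the change in either muscle. The interval was 0.81 to 1.71-fold in QF and 0.58 to 1.21-fold in TA. Same-numbered pairs differed by 0.03, 0.76 and -0.09 in QF and by -0.31, -0.42 and -0.04 in TA.

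Serping1, which inactivates the proteases bound to C1q, read 807, 903 and 992 in Dysf_null QF, against 760, 571 and 927 in Control QF. TA arrays gave 1121, 1337 and 1582 in Dysf_null, against 829, 1125 and 1239 in Control. The groups overlapped in both muscles, although the same-numbered pairs were positive in 6 of 6. The average difference was 0.31 ± 0.14, with limma adjusted p = 0.64 and, with the replicate block, 0.0776.

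**Figure D2:**
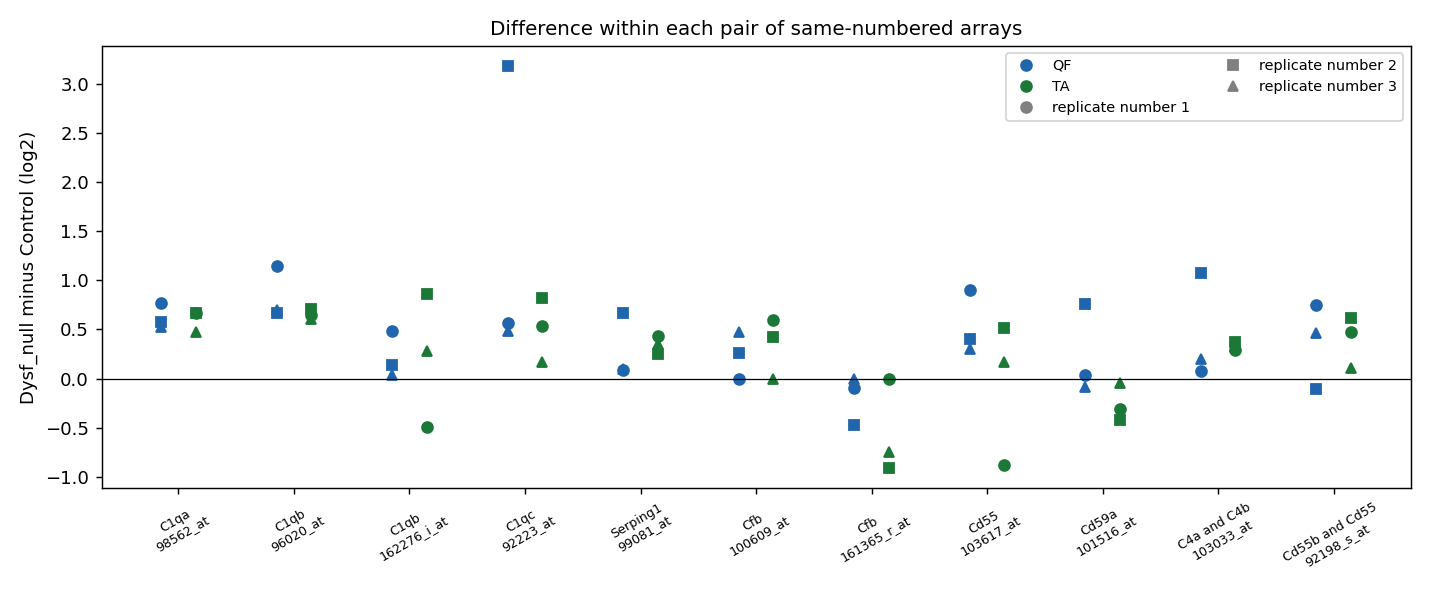
The vertical axis gives the log2 difference Dysf_null minus Control between arrays of the same number within a muscle, for 11 complement probe sets, with QF in blue, TA in green and symbols for the number. All 6 points lie above 0 for C1qa, C1qb 96020_at, C1qc, Serping1 and the probe set of C4a and C4b, and the C1qc point of QF number 2 stands far above the rest. The share of all tested probe sets with 6 points above 0 is not given, so it cannot be told whether this is unusual.

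Over all members, 1 of the 9 probe sets was called higher in Dysf_null muscle for the average, where 1.09% of all tested probe sets were called and 0.784% were called higher. In QF none of the 9 was called (0.455% of all probe sets), 2 had an unadjusted limma p under 0.05, and 8 of 9 differences were positive. In TA none was called (0.407% of all probe sets), 3 had an unadjusted limma p under 0.05, and 6 of 9 differences were positive. With the replicate block 2 member probe sets, C1qa and C1qb 96020_at, were called in each muscle and for the average, where the block called 2.64% of all probe sets in QF, 1.54% in TA and 4.59% for the average.

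The median difference of the 9 probe sets was 0.28 in QF, against -0.01 over all tested probe sets, and 0.34 in TA, against 0.00 over all tested probe sets. Arrays did not overlap for 2 members in QF and 3 in TA, all of them C1q probe sets and all higher in Dysf_null. Over all tested probe sets 4.08% were separated in that direction in QF and 6.92% in TA. These summaries include the 2 probe sets each of C1qb and Cfb.

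**Figure D3:**
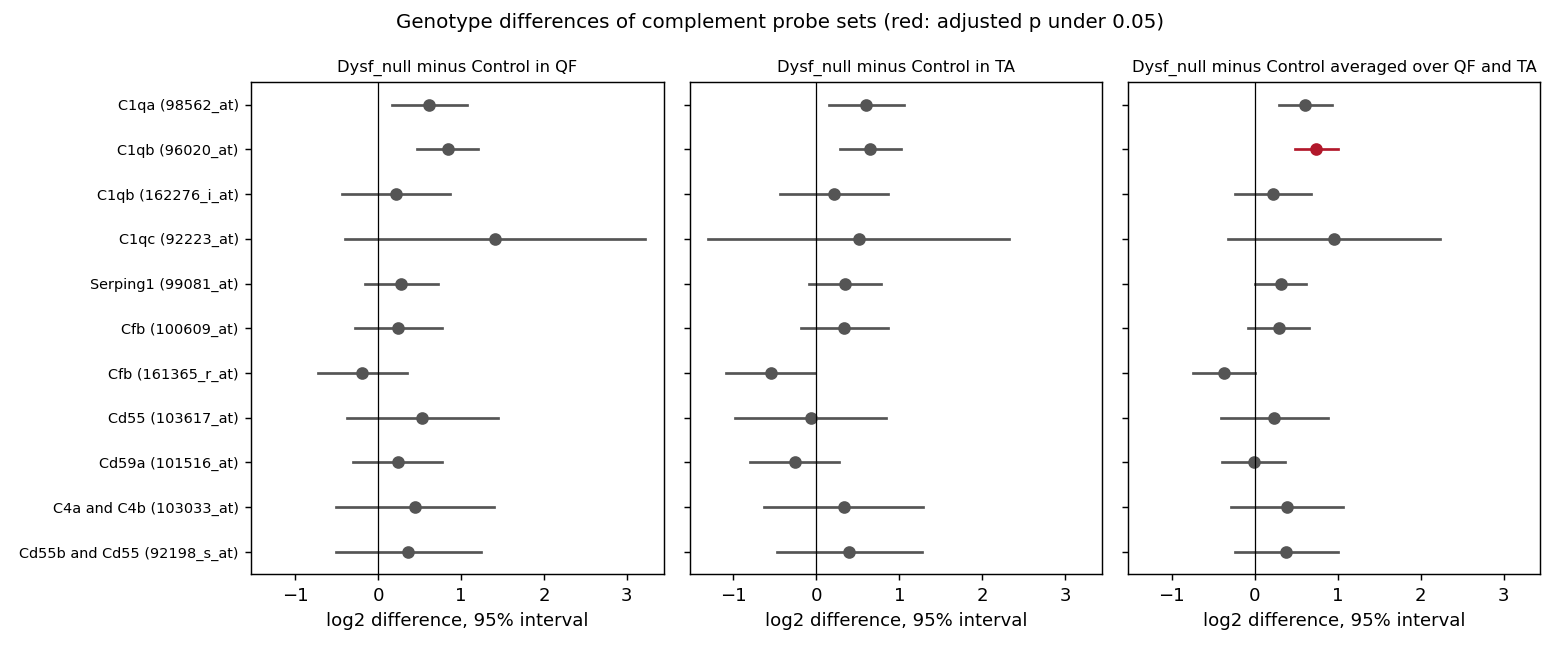
Points give the log2 difference Dysf_null minus Control of each complement probe set in QF, in TA and averaged over them, and lines give its 95% interval from the limma fit of 12 arrays. Only C1qb 96020_at for the average is drawn in red (limma adjusted p = 0.00773), and the intervals of Cd55 span 0 in all 3 panels.

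C1q transcripts are typical of macrophages, and other transcripts of these cells were therefore set beside them. Of 15 macrophage markers 14 were measured. In QF 10 of the 14 differences were positive, with a median of 0.12 and none called, against 2 called higher with the replicate block. In TA 13 were positive, with a median of 0.17, and 1 fell, Cd68, a lysosomal membrane protein of macrophages (-1.27 ± 0.19, limma adjusted p = 0.0104), a call lost in 5 of 22 alternatives, each of which left out 1 TA array (replicates 2 and 3 of Dysf_null, and each of the 3 Control arrays; limma adjusted p up to 0.0796). For the average 1 rose, Lyz2, the lysozyme of myeloid cells (0.70 ± 0.13, limma adjusted p = 0.0219). The Lyz2 call was lost in 8 of 21 alternatives (limma adjusted p up to 0.0765), among them leaving out the Dysf_null QF array numbered 3, any Dysf_null TA array, or the Control TA array numbered 1 or 3. With the replicate block 3 markers were called higher and 1 lower for the average.

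The summed intensity of the 14 macrophage markers ran from 2464 to 2887 in Dysf_null QF, against 1912 to 2202 in Control QF, and from 2669 to 2890 in Dysf_null TA, against 2359 to 2552 in Control TA. It was thus higher on every Dysf_null array than on any Control array of the same muscle, as C1qa and C1qb 96020_at were. Bright genes weigh most in such a sum. In QF the mean of Lyz2 was 604 in Dysf_null against 343 in Control, and that of Ctss 326 against 174. Of the 14 differences 4 were negative in QF and 1 in TA. Of the defining markers Adgre1, which encodes F4/80, was above the floor on all 12 arrays, while Aif1 was above it on 4, Fcer1g on 5 and Fcgr3 on 6. The summed intensity of the muscle markers was lower on every Dysf_null QF array than on any Control QF array, though no single marker was called. The part of neither list in the C1q difference was tested.

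Individual macrophage genes were uneven. Tyrobp, an adaptor of myeloid receptors, had differences of 0.93 in QF and 0.84 in TA, and Ctss, a lysosomal protease, of 0.91 in QF and 0.42 in TA, close in size to those of C1qb, though neither passed. Laptm5, Cd14 and Mpeg1 had differences between -0.20 and 0.21 in both muscles. Fcgr1 had -0.30 in QF and 0.04 in TA. The macrophage list thus held genes with positive differences like those of C1q, genes near 0 and genes with negative ones. Among the last was Cd68, called lower in TA (-1.27) but at 0.16 in QF.

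**Figure D4:**
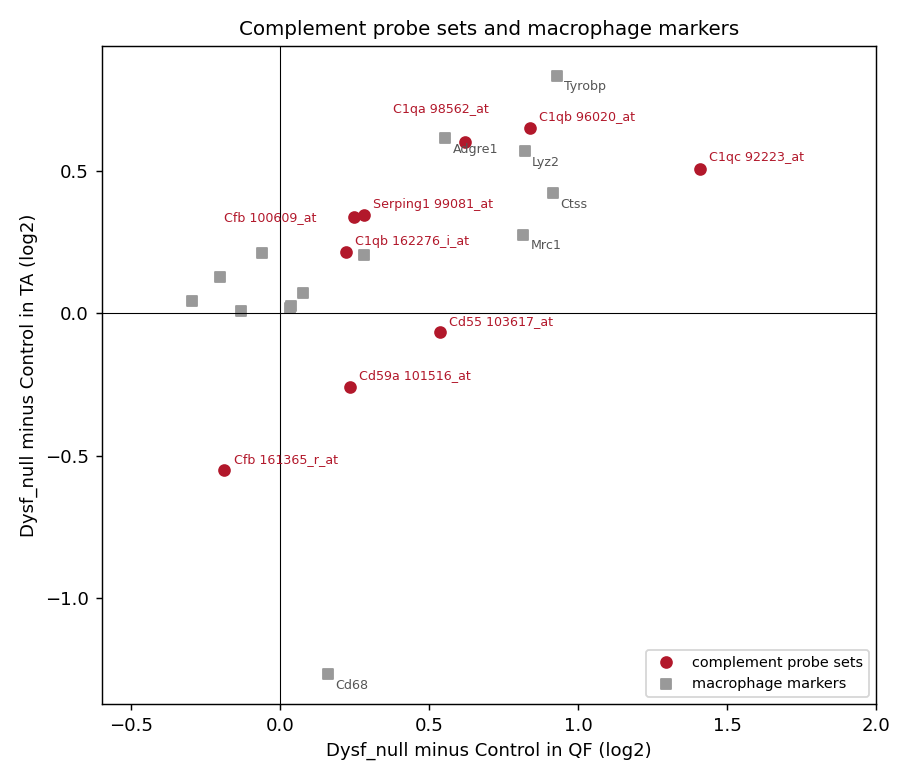
The log2 difference Dysf_null minus Control in QF (horizontal) is plotted against that in TA (vertical) for the 9 complement probe sets (red circles) and the 14 macrophage markers (grey squares). C1qa and C1qb 96020_at lie near Tyrobp, Lyz2, Adgre1 and Ctss, Cd55 and Cd59a lie right of 0 and below it, and Cd68 lies far below.

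Fibroblast markers had positive differences as well. Each gene of a marker list was counted by its tested probe set with the highest mean. By these, all 10 measured fibroblast genes had positive differences in QF (median 0.76) and in TA (median 0.36), none of them called without the replicate block. Of the 3 probe sets of Col3a1, 1 that was not counted was called in QF and for the average. For the average 1 of the probe sets counted passed, that of Col1a1, a collagen chain (0.92, limma adjusted p = 0.0413). This call was lost in 13 of 21 alternatives (limma adjusted p up to 0.15), including 9 of the 12 that left out 1 array. It held without the Control array numbered 3 in QF, the Dysf_null array numbered 1 in TA or the Control array numbered 2 in TA. With the replicate block 6 of the 10 were called higher in QF, 3 in TA and 7 for the average. Their summed intensity ran from 30290 to 42760 in Dysf_null QF, against 20080 to 28100 in Control QF, and overlapped in TA, at 31550 to 45170 in Dysf_null, against 24170 to 31730 in Control. Fibroblasts are a known source of Serping1 and C4, and the part of these markers in the values of those genes was not tested. Hepatocyte markers, listed because the liver makes most plasma complement, were uneven. Alb ranged from 11.6 to 92.8 over the arrays, and Apoa1 and Fgb were at the floor on all of them, while Apoc1, which macrophages also express, was above the floor on all 12 and ranged from 43.8 to 324. Of 12 hepatocyte genes 6 were measured and none was called, with a summed intensity of 324 to 376 in Dysf_null QF, against 323 to 507 in Control QF, and of 239.7 to 286 in Dysf_null TA, against 277 to 326 in Control TA.

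Blood cell markers also separated the genotypes. Of 7 red cell markers 4 were measured, and 1 rose in QF, 3 in TA and 3 for the average, with Alas2, the first enzyme of haem synthesis in red cell precursors, at 2.00 ± 0.23 in TA (limma adjusted p = 0.00179). With the replicate block 3 rose in each muscle. The calls of Alas2 and Bpgm in TA held in all 22 alternatives, that of Hba-a1 in TA in 12 of 22 and that of Bpgm in QF in 5 of 22. The summed intensity of the red cell markers ran from 21030 to 27340 in Dysf_null QF, against 15740 to 16070 in Control QF, and from 22550 to 25930 in Dysf_null TA, against 11690 to 15620 in Control TA, so that it too was higher on every Dysf_null array. Most of this sum was Hba-a1, with means of 21670 in Dysf_null QF, 14840 in Control QF, 21750 in Dysf_null TA and 12380 in Control TA. Slc4a1 differed by -0.01 in QF and 0.52 in TA and was called in neither muscle. The 6 granulocyte markers summed to between 221 and 390.2 in Dysf_null QF, against 524 to 676 in Control QF, and to between 860.2 and 1069 in Dysf_null TA, against 231 to 398 in Control TA, with opposite directions in the muscles, unlike C1qa and C1qb 96020_at. In QF 1 was called lower, and 3 with the replicate block, and in TA 2 were called higher, and 4 with the block. The 6 endothelial markers had no call. The part of blood cells in the values of C1q, Cd55 and Cd59a was not tested.

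The rest of the complement system gave no call. Of 44 other complement genes, 28 had a probe set of their own and 20 were measured, and limma called none in any of the 6 comparisons, including with the replicate block. At an unadjusted limma p under 0.05 there was 1 of the 20 in QF, 0 in TA and 1 for the average. Their median difference was -0.01 in QF, 0.08 in TA and 0.03 for the average, close to that of all probe sets. Single genes ran from -1.27 to 0.71 in QF, from -0.50 to 0.35 in TA and from -0.80 to 0.48 for the average.

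In the classical and lectin pathways 5 of 13 genes were measured. C1ra, a protease carried by C1q, had differences of -0.01 in QF and 0.18 in TA, and C2, the protease subunit of the classical convertase, of -0.16 in QF and 0.25 in TA. In the alternative and terminal pathways 4 of 9 genes were measured. Among them C8g and C9, components of the membrane attack complex, were not called. C8g ranged from 65.0 to 124 over the arrays, with differences of -0.08 in QF and 0.04 in TA. C9 ranged from 32.6 to 111, with differences of -0.49 in QF and -0.48 in TA.

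Among 12 other regulators 5 were measured. Cr1l, which encodes Crry, the main membrane regulator of C3 convertases on mouse cells, ranged from 119 to 424 over the arrays, with differences of 0.00 in QF and -0.50 in TA, and Clu, a fluid phase inhibitor of the terminal complex, had 0.07 in QF and -0.09 in TA. Among 10 receptors 6 were measured. C5ar1, the receptor for C5a, had differences of 0.18 in QF and 0.34 in TA, and Cd93, once proposed as a C1q receptor and found on endothelium, had 0.71 in QF and 0.01 in TA. None of these passed.

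Members were also compared between the muscles. Cd59a read higher on every TA array than on any QF array in Control mice, with a difference TA minus QF of 0.83 ± 0.25 (limma adjusted p = 0.223), and also in Dysf_null mice, with 0.33 ± 0.25 (limma adjusted p = 0.897). Such a separation was seen for 8.16% of all tested probe sets in Control mice and 5.71% in Dysf_null mice. Serping1 had 0.57 ± 0.20 in Dysf_null mice, without overlap (limma adjusted p = 0.704), and 0.51 ± 0.20 in Control mice, with overlap (limma adjusted p = 0.433). Neither gene passed the test, and the QF arrays numbered 2 were the lowest of their group for Cd59a in both genotypes.

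C1qb 96020_at had small differences between the muscles, at 0.16 ± 0.17 in Control and -0.03 ± 0.17 in Dysf_null mice, and C1qa likewise at 0.09 ± 0.21 in Control and 0.07 ± 0.21 in Dysf_null mice. None of the 9 member probe sets was called in Control mice (0.736% of all probe sets; 2 members at an unadjusted limma p under 0.05) or in Dysf_null mice (0.3% of all probe sets; 1 member). The study's title asks whether lack of dysferlin alters the difference between muscles, which the interaction addresses, taken as the TA difference between genotypes less the QF one. It was -0.02 ± 0.30 for C1qa, -0.19 ± 0.24 for C1qb 96020_at and -0.60 ± 0.60 for Cd55. None of the members was called (0.0678% of all probe sets; 0 members at an unadjusted limma p under 0.05), and the 95% interval of the interaction ran from -0.71 to 0.33 for C1qb 96020_at and from -0.92 to 0.92 for the other C1qb probe set.

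The probe sets most like Cd55 over the 12 arrays, by Pearson's r and as a description, were those of Wdr77 (0.957), Cd164 (0.95), Stk38 (0.928), Rab1a (0.926) and Smap1 (0.919). C1qa followed Cd55 at r = 0.06, and the probe set of Cd55b and Cd55 at 0.66. The C1qb probe set with the higher mean, 162276_i_at, was most like those of B4galt1 (0.93), H2-M10.1 (0.924), Sephs2 (0.921), Aldoa (0.914) and Slc25a5 (0.903). All points share the same 12 arrays and their normalization, and the 2 QF arrays that stood apart enter every r.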

How the data were processed

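The authors deposited 1 linear intensity for each probe set and array. With 2% trimmed from each end, every array had a mean of 200.1 or 200.2, which shows that the authors had scaled the arrays to 1 target. Their software and background correction are not stated. After 66 controls were removed, 12422 probe sets were quantile normalized, floored at the 25th percentile (intensity 23.0), and put on the log2 scale. Probe sets exceeding the floor on 3 or more arrays (10331) were tested with limma 3.58.1 in R 4.3.3 on all 12 arrays (group means, intensity trend, two-sided, Benjamini-Hochberg adjustment, 8 residual degrees of freedom). Figures used matplotlib 3.10.9 in Python 3.11.15. The number of arrays limits the precision, with a median SE of 0.323 (log2) for a difference in QF. The fit was tested on simulated data.

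Of the 12422 probe sets, 10833 had 1 gene symbol, 396 several and 1193 none in the annotation table, and updating symbols by gene number (GRCm38.p6) changed 0. Members, lists and tests were chosen with earlier results of these data known. Of other complement genes, the text names those called and up to 2 per list with the highest mean, plus marker genes singled out after their values were seen. Deviations of same-numbered arrays from their group means correlated in QF (0.39, 0.711 and 0.66) and weakly in TA (0.182, 0.114 and 0.231). Between muscles these correlations ran from -0.141 to 0.123. Numbers were therefore taken as pairs within a muscle, a choice made from these data. The labels do not state a pairing, so p-values with the block depend on that choice. Alternatives changed the scaling, floor, low-value filter, variance model, pairing and arrays used.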

Additional observations from a re-analysis of the deposited data

How the results depend on the processing

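The number of member probe sets called was 0 in QF, 0 in TA and 1 for the average of the genotype difference. In QF it was 1 with no filter on low values (C1qb 96020_at, limma adjusted p = 0.0375) and 2 with the replicate block. In TA it was 1 with array weights (C1qb 96020_at, limma adjusted p = 0.0142) and 2 with the replicate block. For the average it was 2 with array weights, 2 with the replicate block, and 1 to 2 when each array was left out in turn. The cause was not tested. The replicate block changed no other call of a member, and no called value changed sign under any alternative. Cd55 in QF ranged from 0.20 to 0.90 and in TA from -0.32 to 0.25 over the alternatives. Deposited scaling without quantile normalization moved the median of all probe sets by -0.101 for TA minus QF in Control mice. Counts over all probe sets varied more: in QF 47 were called, against 273 with the block, 7 with no intensity trend and 0 with QF fitted alone, in TA 42, against 192 with array weights and 159 with the block, and for the average 113, against 474 with the block, 191 with array weights and 56 with no intensity trend. With 1 array left out the count ran from 21 to 82 in QF, 14 to 45 in TA and 58 to 132 for the average, and without both QF arrays numbered 2 it was 2 in QF. With 3 arrays a group, and probe sets of Cfb mostly at the floor, differences of the size seen for Cd55 could not be told apart from the spread.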

Other observations

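By 96020_at, a probe set taken up for this purpose after its values were seen, the transcripts most like C1qb over the 12 arrays were those of H2-Aa (Pearson's r = 0.936), an MHC class II chain of antigen-presenting cells, Ccn4 (0.929), Tmsb10 (0.927), Anxa5 (0.921) and Crtap (0.912). C1qa correlated at 0.922 and ranked 4 among all tested probe sets, whereas C1qc, with 1 array at the floor, correlated at 0.514. Each r includes the difference between genotypes, which for H2-Aa was 2.59 in QF and 2.54 in TA. Probe sets that separate the genotypes as 96020_at did therefore tend to rank high. The rank of C1qa is thus not separate from its difference given above. The other C1qb probe set had none of H2-Aa, Ccn4, Tmsb10, Anxa5 and Crtap among its 5 most alike. Of the 6 granulocyte markers S100a9 had opposite differences in the muscles, -1.82 ± 0.32 in QF (limma adjusted p = 0.028) and 2.74 ± 0.32 in TA (limma adjusted p = 0.00179), with an interaction of 4.56 ± 0.46 (limma adjusted p = 0.00115). The TA and interaction calls held in every alternative run, whereas the QF call held in only 10 of 22 (limma adjusted p up to 0.459) and was lost in 9 of the 12 that left out 1 array. S100a8 passed in TA (2.31 ± 0.38, limma adjusted p = 0.0164), in 16 of 22 alternatives (limma adjusted p up to 0.121).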
